A study of Mus musculus with 10 samples.

Results

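The genes described here are the well-counted solute carriers of the mouse pituitary, 189 of the 21877 protein-coding genes in a table of 55416 gene IDs. They were chosen by symbol (Slc with a family number, or Slco) and by a summed raw count of 1000 or more over the 10 libraries. Another 194 solute carrier genes lay below that sum, 13 of them at 0. The summed count, which chose the genes, had a median of 3215 and reached 40025 for Slc6a17. Just inside the threshold stood Slc8a2 (1069), Slc19a1 (1039) and Slc22a4 (1016), and just outside it Slc4a5 (987), Slc27a3 (982) and Slc45a1 (980). Some of the 189 carry a solute carrier symbol but are not transporters themselves, among them Slc4a1ap and Slc7a6os. Membership rests on the symbol alone.

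Solute carriers are membrane proteins that move amino acids, sugars, ions, metals, nucleotides and vitamins across the plasma membrane and the membranes of organelles. In an endocrine gland such as the pituitary they supply nutrients, load secretory vesicles, provide sugar nucleotides for glycosylation in the Golgi and exchange metabolites with mitochondria. The Musashi proteins, known from stem cells and the nervous system, bind short UAG-containing motifs in the 3' UTRs of target mRNAs and control their translation.

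RNA was co-immunoprecipitated with a pool of antibodies to Musashi1 and Musashi2 (Musashi IP) or with control rabbit IgG from the same lysate, so that enrichment means more of a mRNA in Musashi IP than in IgG. Each lysate pooled 6 pituitaries of sighted FVB control mice aged 8 to 10 weeks, without any transgene or treatment in either group. The 5 lysates, numbered 2, 3, 5, 6 and 7 in the labels, gave 5 Musashi IP and 5 IgG libraries. Lysates 2, 5 and 6 were female and lysates 3 and 7 male. The other lysate of the design, and RNA of the lysates before precipitation, were not analysed here. Each lysate is a pool, so the spread below is between pools and not between mice, and in a whole gland fewer cells of a type and less RNA per cell cannot be told apart.

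Total counts were 8742084 to 13019326 in Musashi IP and 6673425 to 9354745 in IgG. Hormone genes made up 15057 to 37499 CPM in Musashi IP and 14408 to 48959 CPM in IgG. CPM are counts relative to library size, for single genes below also scaled by edgeR's TMM factors. Lhb was at 0 in every library. The reason was not tested, and this 0 does not show that its mRNA was absent. Markers of blood, immune and endothelial cells ran lower in Musashi IP. Erythroid markers summed to 214 to 652 CPM in Musashi IP and 500 to 1195 CPM in IgG, with 3 of 5 lower at adjusted p under 0.05. Immune markers summed to 36.4 to 147 CPM in Musashi IP and 51.1 to 149 CPM in IgG, with 2 of 6 lower. Endothelial markers summed to 61.8 to 149.5 CPM in Musashi IP and 80.5 to 313 CPM in IgG, with none of 6 called and a median log2 fold change of -0.38. Stem and folliculostellate markers summed to 29.6 to 54.6 CPM in Musashi IP and 20.1 to 48.6 CPM in IgG. Their sum was higher in Musashi IP in 4 of 5 lysates, with 1 of 4 genes enriched. Of 6 hormone genes tested 1 was enriched and none lower, and none of 6 mural and fibroblast markers was called. The part of these cells in the results below was not tested. The Musashi IP library of lysate 6 stood apart: it was the deepest, its scaling factor was 0.784 against 0.945 to 1.11 in the other libraries, and all 70 solute carriers called enriched below had their highest ratio in that lysate, as did 93.1% of all enriched genes.

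Examples of where the Musashi motif lies are given as windows of 30 bases, written 5' to 3' as DNA, with T for U. They come from the longest annotated 3' UTR of a selection of the 15 most enriched solute carriers, with windows of 2 motifs put first. Slc35e1, Slc7a1 and Slc25a51, with 7, 9 and 3 motifs, are not shown. Slc48a1 and Slc35a4, also among the 15, held none. Capitals mark the motifs searched on the sense strand, which were GTAGT or ATAGT with 1 T before the AGT, GTTAGT or ATTAGT with 2, and GTTTAGT or ATTTAGT with 3. The first 4 windows hold 2 motifs each, overlapping in Slc25a24, and the next 6 hold 1 each.
Slc7a14: tgcagacacaGTAGTATAGTtagacccacc
Slc36a4: gaggagATAGTtttaatttGTAGTgtgagc
Slc41a2: gaagtATAGTttacccactaGTAGTgggat
Slc25a24: agcacacttcaATAGTAGTatatattcatc
Slc7a5: atgcagttcttacATAGTggtgacttacca
Slc25a44: acagtagaggggcATAGTtataagtgggtc
Slc39a3: gtaatagaagttATTAGTgcaggcgggatc
Slc39a11: gagcaggcactttGTAGTggctcccagatc
Slc16a1: atatgggaaagaaGTAGTgattttcttttt
Slc25a30: gttttttagtcaGTTAGTgaactgaagagg
The motif was also present in mRNAs that were lower in Musashi IP, of which 3 windows are shown. The windows were picked, so their numbers of motifs do not compare enriched with lower mRNAs. Motifs per length of whole UTRs are given below.
Slc16a4: cttttatttaaatATAGTcattggttaact
Slc30a6: gccttccaatgtATTTAGTaatccaacttg
Slc39a12: ggccacaataatGTTTAGTgttagaaaatt
A match is a string of letters in the annotation and not a mapped binding site.

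The comparison of Musashi IP with IgG asked which mRNAs were precipitated with Musashi. Of the 189 solute carriers, 70 (37%) were enriched in Musashi IP and 5 (2.65%) were lower at adjusted p under 0.05 (edgeR quasi-likelihood test with lysate as a block, adjusted over all genes tested). The same call was made for 18.5% of all 20550 genes tested as enriched and 8.4% as lower, for 25.7% and 4.01% of the 14200 protein-coding genes tested, and for 31.6% and 4.45% of the 10105 protein-coding genes with as many counts. The share of enriched solute carriers is to be read against the last of these, and the difference between them was not tested. Their median log2 fold change was 0.26, against 0.14 for the well-counted protein-coding genes and -0.07 for all genes tested. It was 0.14 with a correction for transcript length and GC content and 0.08 with libraries scaled by their totals alone. Under library totals the well-counted protein-coding genes were at -0.04 and all genes tested at -0.24. The remaining 114 solute carriers were not called. At an unadjusted p under 0.05 in either direction there were 102 solute carriers (54%), against 42.1% of all genes tested. That share was not taken for the well-counted protein-coding genes, so the gap is not a result about solute carriers. Among the enriched, the median fold was 1.76, 26 were enriched 2-fold or more and 2 were enriched 4-fold or more. Of the 70, 69 were higher in Musashi IP in 5 of 5 lysates, the exception being the glutamate transporter Slc1a3 in lysate 2. Every Musashi IP library lay above every IgG library for 28 solute carriers (14.8%), against 9.7% of all genes tested and 17.4% of the well-counted protein-coding genes. The enriched count was 42 without lysate 7. Without lysate 5 it was 27, or 48 when library totals were recomputed from the genes that passed the filter, an alternative chosen after seeing the data, so its dependence on lysate 5 varies with the scaling.

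As a share of each library, the 189 genes took 1.21% ± 0.157 of the counts in Musashi IP and 0.991% ± 0.0442 in IgG (SD, n = 5 each). The share was higher in Musashi IP in 5 of 5 lysates, with 1.09, 1.08, 1.23, 1.47 and 1.17% in Musashi IP of lysates 2, 3, 5, 6 and 7, against 0.913, 1.02, 0.996, 1.01 and 1.01% in IgG. This share is a description, with no test, because the summed counts chose the genes. The median log2 ratio of the 189 genes was 0.18, 0.10, 0.26, 0.54 and 0.24 in lysates 2, 3, 5, 6 and 7. All were above the median of all genes in the same lysate. The well-counted protein-coding genes, the nearer reference, also had a positive median over the lysates (0.14). Their medians by lysate were not taken, so an excess of solute carriers in each lysate is not shown.

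**Figure D1:**
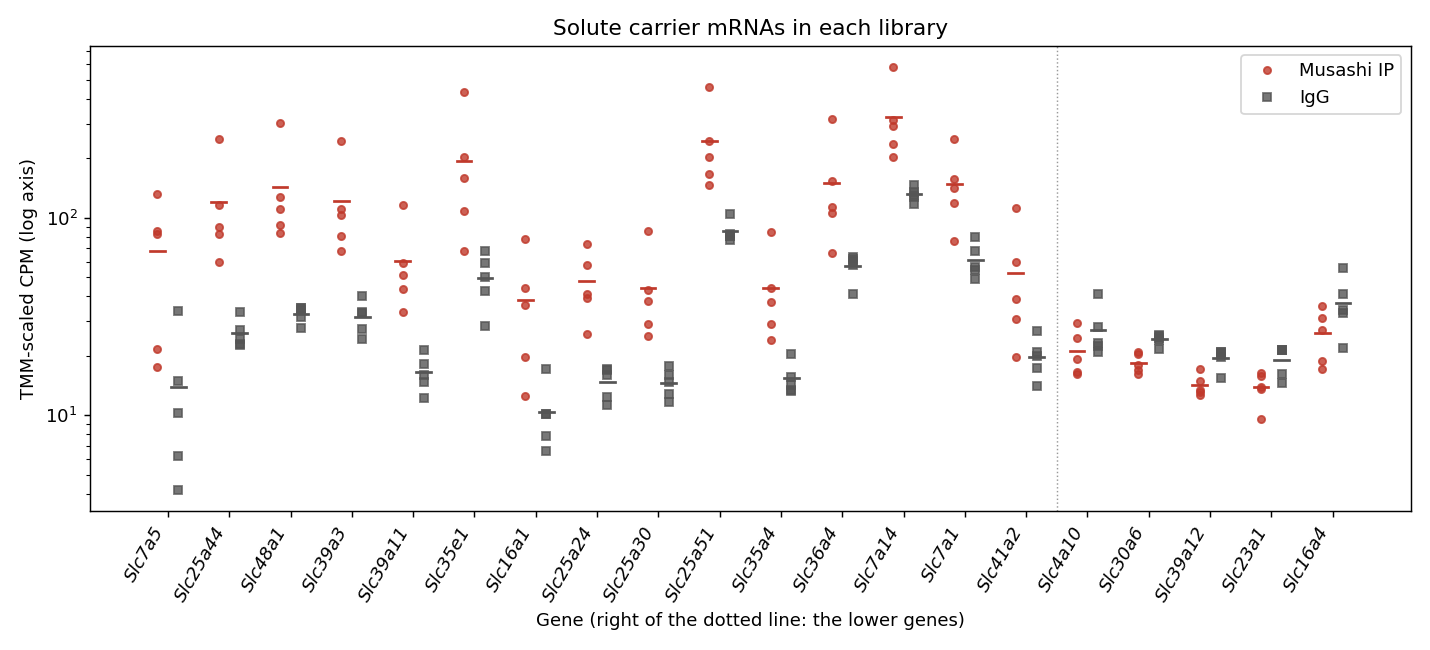
TMM-scaled CPM (log axis) of the solute carriers with the largest fold changes, in each Musashi IP and IgG library. For Slc25a44, Slc48a1 and Slc39a3 every Musashi IP point sits above every IgG point, while Slc7a5 overlaps.

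The counts of each substrate group below are to be read against the well-counted protein-coding genes, 31.6% enriched and 4.45% lower. No group was tested against them. The amino acid and neurotransmitter carriers held the solute carrier with the largest fold change. Of 28 genes, counted with the non-transporter Slc7a6os and the heavy chain Slc3a2, 13 were enriched and none was lower. Their median log2 fold change was 0.32, or 0.14 under library totals. Slc7a5, the large neutral amino acid transporter LAT1, had 86.1, 17.6, 83.2, 131 and 21.6 CPM in Musashi IP of lysates 2, 3, 5, 6 and 7, against 33.9, 6.20, 14.9, 10.3 and 4.20 CPM in IgG. The groups overlapped, with both low in the male lysates 3 and 7, but Musashi IP was higher within every lysate. The log2 fold change was 2.27 ± 0.31 (SE, n = 5 pairs; 4.84-fold, adjusted p = 0.00376). Slc3a2, the heavy chain with which LAT1 forms its heterodimer, was chosen for that role outside the rule for named genes. It averaged 37.9 ± 8.64 CPM in Musashi IP and 46.6 ± 8.83 CPM in IgG (SD, n = 5 each), a log2 fold change of -0.31 ± 0.11 that did not pass (adjusted p = 0.0627).

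Other carriers of this group with large fold changes were Slc7a1, Slc7a14 and Slc36a4. Slc7a1, the cationic amino acid transporter CAT1, had 142, 76.1, 157, 252 and 119 CPM in Musashi IP and 79.6, 54.2, 68.2, 56.4 and 49.2 CPM in IgG. All but the Musashi IP library of lysate 3 lay above the highest IgG library, and the log2 fold change was 1.19 ± 0.21 (adjusted p = 0.00615). Slc7a14, a lysosomal member of the same family, had 237, 203, 312, 581 and 294 CPM in Musashi IP and 135, 128, 130, 118 and 146 CPM in IgG. The groups did not overlap, and the log2 fold change was 1.20 ± 0.22 (adjusted p = 0.00649). Slc36a4, a proton-independent amino acid transporter, had 113, 66.4, 154, 316 and 106 CPM in Musashi IP and 57.7, 41, 60.7, 62.1 and 63.1 CPM in IgG. Its groups did not overlap either, and the log2 fold change was 1.22 ± 0.23 (adjusted p = 0.00733). Slc6a17, a synaptic vesicle transporter of neutral amino acids, averaged 570 ± 286 CPM in Musashi IP and 306 ± 100 CPM in IgG (SD, n = 5 each), with a log2 fold change of 0.81 ± 0.15.

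Metal and heme carriers had the largest median of the substrate groups. Of 20 genes, 12 were enriched and 2 were lower, with a median log2 fold change of 0.65, or 0.47 under library totals. Slc48a1, the heme transporter HRG1, had 92.1, 83.7, 128, 303 and 111 CPM in Musashi IP and 34.3, 31.5, 34.8, 34.8 and 27.7 CPM in IgG. The groups did not overlap, and the log2 fold change was 1.96 ± 0.24 (3.90-fold, adjusted p = 0.00336). Its annotated 3' UTR of 1969 nt held none of the motifs. Slc39a3, the zinc importer ZIP3, had 103, 67.8, 110, 244 and 81 CPM in Musashi IP and 40.3, 33.4, 27.2, 32.8 and 24.4 CPM in IgG, with a log2 fold change of 1.80 ± 0.24 (adjusted p = 0.00361). Slc39a11, the zinc transporter ZIP11, had 43.4, 33.2, 51.6, 116 and 59 CPM in Musashi IP and 21.5, 18.2, 14.8, 12.3 and 16 CPM in IgG. Its groups did not overlap, and the log2 fold change was 1.75 ± 0.31 (adjusted p = 0.00606).

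The zinc transporters fall into a family of importers into the cytosol, Slc39, and a family that moves zinc out of it, Slc30. Of the 9 Slc39 genes, 7 were enriched and 1 was lower, and of the 6 Slc30 genes, 2 were enriched and 1 was lower. Of the well-counted protein-coding genes 31.6% were enriched and 4.45% lower. These zinc transporter families were singled out after their values were seen, and the difference between them was not tested. Slc30a4 and Slc30a7, exporters of zinc into vesicles and the Golgi, had log2 fold changes of 1.09 ± 0.22 and 0.95 ± 0.19. Slc30a6, an exporter that works in the Golgi as a heterodimer with Slc30a5, had 17.9, 16.9, 20.8, 20.4 and 16.1 CPM in Musashi IP and 24.2, 21.7, 25.2, 24.7 and 25.6 CPM in IgG. It was the only solute carrier for which every Musashi IP library lay below every IgG library (1 of 189, 0.529%, against 1.98% of all genes tested and 1.44% of the well-counted protein-coding genes), and the log2 fold change was -0.40 ± 0.11 (adjusted p = 0.0276). Slc30a5, named for that partnership, was at 91.6 ± 6.85 CPM in Musashi IP and 93.8 ± 9.40 CPM in IgG, with a log2 fold change of -0.03 ± 0.10 (adjusted p = 0.824). Slc39a12, the zinc importer ZIP12, had 13.2, 13.5, 14.9, 12.6 and 17.2 CPM in Musashi IP and 15.4, 19.7, 21, 21 and 20.7 CPM in IgG, overlapping, with a log2 fold change of -0.45 ± 0.12 (adjusted p = 0.0250).

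Carriers of the Golgi and endoplasmic reticulum, mostly the Slc35 family that brings nucleotide sugars to the glycosyltransferases, had 11 of 23 genes enriched and none lower. Their median log2 fold change was 0.46, or 0.28 under library totals. Slc35e1, a family member of unknown substrate, had 159, 67.6, 204, 435 and 109 CPM in Musashi IP and 67.7, 28.2, 58.9, 50.1 and 42.5 CPM in IgG. Only the Musashi IP library of lysate 3 fell among the IgG values, and the log2 fold change was 1.74 ± 0.26 (adjusted p = 0.00414). Slc35a4 had 37.3, 24.1, 44.2, 85.3 and 29.1 CPM in Musashi IP and 20.5, 14.3, 15.7, 13.3 and 13.4 CPM in IgG, with no overlap and a log2 fold change of 1.38 ± 0.26 (adjusted p = 0.00743). Slc35b4, which carries UDP-xylose and UDP-N-acetylglucosamine, averaged 115 ± 60.4 CPM in Musashi IP and 48.6 ± 2.91 CPM in IgG (SD, n = 5 each), with a log2 fold change of 1.12 ± 0.21. Of the 5 genes nearest to no difference, Slc35b1, which brings ATP into the endoplasmic reticulum, averaged 35.9 ± 8.27 CPM in Musashi IP and 36.2 ± 8.29 CPM in IgG. Slc35d1, a carrier of UDP-glucuronic acid, averaged 35.3 ± 3.15 CPM in Musashi IP and 36.1 ± 7.33 CPM in IgG.

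The Slc25 family, mostly carriers of the mitochondrial inner membrane, had 13 of 36 genes enriched and none lower. Its median log2 fold change of 0.25 became 0.07 under library totals. Slc25a44, the carrier of branched-chain amino acids, had 82.7, 59.8, 117, 252 and 90.1 CPM in Musashi IP and 33.3, 22.9, 27, 24.2 and 22.7 CPM in IgG. The lowest Musashi IP library stood above the highest IgG library, and the log2 fold change was 2.03 ± 0.28 (4.08-fold, adjusted p = 0.00376). Slc25a24, a calcium-regulated exchanger of ATP-magnesium for phosphate, had 25.9, 39.4, 41.4, 73.8 and 57.9 CPM in Musashi IP and 16, 17.3, 12.3, 11.3 and 17 CPM in IgG, with a log2 fold change of 1.62 ± 0.25 (adjusted p = 0.00432). Slc25a23, its close relative with the same substrate, averaged 39 ± 3.86 CPM in Musashi IP and 38.8 ± 4.02 CPM in IgG, with a log2 fold change of 0.01 ± 0.09 (adjusted p = 0.954), and its direction changed with the scaling. The annotated 3' UTR of Slc25a24 (1947 nt) held 10 motifs and that of Slc25a23 (1768 nt) held none. Other genes did not pair this way. The UTR of Slc35d1 (3023 nt), also near no difference, held 5 motifs, and that of Slc4a10 (2032 nt), lower in Musashi IP, held 6. Slc25a51, the mitochondrial NAD carrier, had 166, 146, 245, 462 and 203 CPM in Musashi IP and 105, 80.7, 77.6, 81.1 and 82.5 CPM in IgG. Its groups did not overlap, and the log2 fold change was 1.39 ± 0.24 (adjusted p = 0.00588). Slc25a30 had a log2 fold change of 1.48 ± 0.27 (adjusted p = 0.00681). Adenine nucleotide translocases such as Slc25a5 have many processed pseudogenes, so their counts are uncertain.

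Sugar, polyol and carboxylate carriers had 4 of 20 genes enriched and 1 lower. Their median log2 fold change of 0.23 became 0.058 under library totals. Slc16a1, the lactate transporter MCT1, had 36.3, 12.5, 44.3, 77.9 and 19.8 CPM in Musashi IP and 17.1, 6.60, 10.1, 10.2 and 7.87 CPM in IgG. The Musashi IP library of lysate 3 lay within the IgG range, and the log2 fold change was 1.71 ± 0.28 (adjusted p = 0.00505). Slc2a13, the proton-coupled myo-inositol transporter, averaged 380 ± 274 CPM in Musashi IP and 181 ± 42.2 CPM in IgG (SD, n = 5 each), with a log2 fold change of 0.85 ± 0.23 (adjusted p = 0.0257), and Slc37a3 had 0.80 ± 0.18. Slc16a4, an orphan of the monocarboxylate family, had 17.1, 31, 27, 18.9 and 35.9 CPM in Musashi IP and 21.8, 34.2, 41.4, 32.9 and 55.5 CPM in IgG. Musashi IP was lower within every lysate although the groups overlapped, and the log2 fold change was -0.51 ± 0.12 (adjusted p = 0.0172).

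Inorganic ion carriers, counted with the non-transporter Slc4a1ap, had 11 of 32 genes enriched and 1 lower. Their median log2 fold change of 0.18 became 0.0038 when the libraries were scaled by their totals alone, a scaling that moved the median of all genes by -0.18. Slc41a2, a magnesium transporter, had 39, 19.6, 59.7, 112 and 30.9 CPM in Musashi IP and 26.8, 14, 20.9, 19.95 and 17.3 CPM in IgG, overlapping, with a log2 fold change of 1.19 ± 0.28 (adjusted p = 0.0167). Without lysate 5 it was no longer called (adjusted p = 0.0755), but it was when library totals were recomputed from the genes kept (adjusted p = 0.047). Slc9a7, a sodium-proton exchanger of the trans-Golgi network, and Slc4a4, the electrogenic sodium bicarbonate cotransporter NBCe1, had log2 fold changes of 0.82 ± 0.14 and 0.74 ± 0.13. Slc4a10, a sodium-driven bicarbonate transporter of neurons, averaged 21.2 ± 5.65 CPM in Musashi IP and 27.2 ± 8.35 CPM in IgG, with a log2 fold change of -0.35 ± 0.10 (adjusted p = 0.0352). None of the 6 cation-chloride cotransporters of the Slc12 family was called, against 31.6% of well-counted protein-coding genes enriched and 4.45% lower. With 6 genes, singled out after their values were seen, this is a description only.

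Of the 7 vesicular and lysosomal carriers 3 were enriched and none was lower. Slc17a6, the vesicular glutamate transporter VGLUT2, had 76.4, 18, 73.2, 149 and 29.5 CPM in Musashi IP and 59.8, 14.2, 41.6, 44.7 and 14.8 CPM in IgG. Both groups were low in the male lysates and overlapped, and the log2 fold change was 0.86 ± 0.20 (adjusted p = 0.0157). Slc17a5, the lysosomal sialic acid exporter, and Slc18b1, a vesicular polyamine transporter, had log2 fold changes of 0.73 ± 0.23 and 0.63 ± 0.17. Of the 13 carriers of vitamins, nucleosides, choline and fatty acids 3 were enriched and 1 was lower, with a median of 0.13 that became -0.05 under library totals. Slc23a2 and Slc23a1, both sodium-dependent vitamin C transporters, were called in opposite directions. Slc23a2 averaged 172 ± 43.1 CPM in Musashi IP and 115 ± 17.2 CPM in IgG, with a log2 fold change of 0.55 ± 0.11 (adjusted p = 0.00896). Slc23a1 averaged 13.8 ± 2.67 CPM in Musashi IP and 19 ± 3.29 CPM in IgG, with a log2 fold change of -0.46 ± 0.15 (adjusted p = 0.0462), and was higher in Musashi IP in lysate 2. Slc29a3, a lysosomal nucleoside transporter, and Slc27a4, a fatty acid transporter, had log2 fold changes of 0.89 ± 0.27 and 0.43 ± 0.12. None of the 10 carriers of organic ions, bile acids and urea was called, and their log2 fold changes ran from -0.35 to 0.16. Of the well-counted protein-coding genes 31.6% were enriched and 4.45% lower, and the difference was not tested.

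All 5 lower calls were lost without lysate 5 and without the lysate block, and 2 lower calls were made with sex in place of the block. Their median fold was 0.730. Among the enriched genes named here, Slc6a8 was not called in 11 of the 13 other settings first tried, Slc27a4 in 8, Slc17a5 in 6, Slc18b1 in 4, Slc1a3 and Slc29a3 in 3 each, and Slc2a13, Slc17a6 and Slc23a2 in 2 each. Slc41a2, Slc30a7 and Slc37a3 were not called without lysate 5, Slc35c1 among the genes without a motif likewise, and Slc4a4, Slc35f1 and Slc6a17 were not called without the block. With library totals recomputed from the genes kept, Slc41a2 and Slc37a3 stayed called without lysate 5. Slc4a4 was called with sex in place of the block. Of the genes nearest to 0, Slc15a4, a lysosomal peptide and histidine transporter, averaged 35 ± 3.91 CPM in Musashi IP and 34.7 ± 3.36 CPM in IgG. Slc7a4, a family member without known transport activity, averaged 26 ± 2.96 CPM in Musashi IP and 26.4 ± 4.34 CPM in IgG. The sign of both changed between settings.

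**Figure D2:**
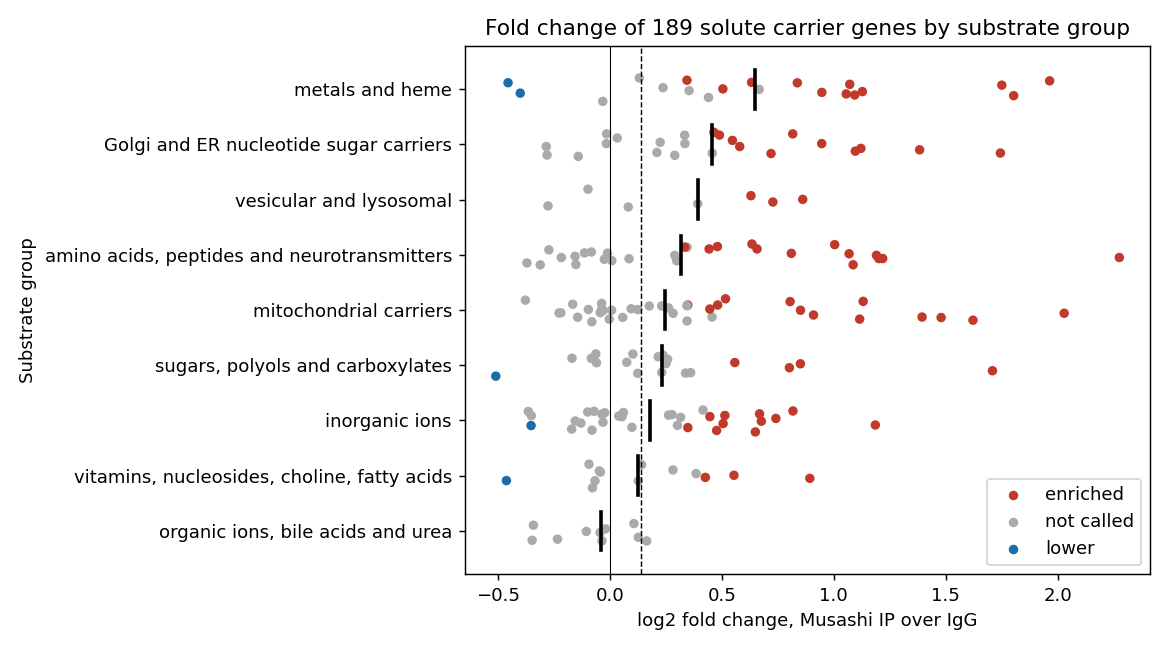
Log2 fold change of Musashi IP over IgG for every solute carrier gene, by substrate group, with the group median as a line. Metal and heme carriers have the highest median (0.65), and the organic ion group, with no called gene, the lowest (-0.04).

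The annotated 3' UTRs were then read for the motifs. Of the 188 solute carriers with a 3' UTR of at least 100 nt, 155 (82.4%) held one or more, against 77.6% of the well-counted protein-coding genes, and their UTRs were longer, with medians of 1797 and 1471 nt. Among the enriched solute carriers 64 of 70 (91.4%) held a motif, against 87 of 113 (77%) of those not called. The enriched had longer UTRs (median 2180.5 nt, against 1397 nt in those not called) while motifs per length differed little. Pooled over all UTRs there were 1.77 per kb in the enriched, 2.71 per kb in the 5 lower and 1.83 per kb in those not called, and the medians over genes were 1.58, 2.95 and 1.56 per kb. The well-counted protein-coding genes had the same order, with 88.8% of enriched and 72.3% of those not called holding a motif, median lengths of 2170 and 1174 nt, pooled densities of 2.01 and 2.06 per kb and median densities of 1.73 and 1.56 per kb, so the order of the densities depends on which summary is used. The 6 enriched solute carriers without a motif were Slc48a1, Slc35a4, Slc35c1, Slc9a7, Slc17a5 and Slc6a8. By UTR length, enriched solute carriers were 1 of 20 (5%) from 100 nt, 6 of 33 (18.2%) from 500 nt, 23 of 50 (46%) from 1000 nt, 24 of 55 (43.6%) from 2000 nt and 16 of 30 (53.3%) from 4000 nt upward, each class ending where the next begins. The well-counted protein-coding genes gave 5.49, 21.1, 35.7, 46.2 and 50.4% in the same classes. No test was made of these shares.

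**Figure D3:**
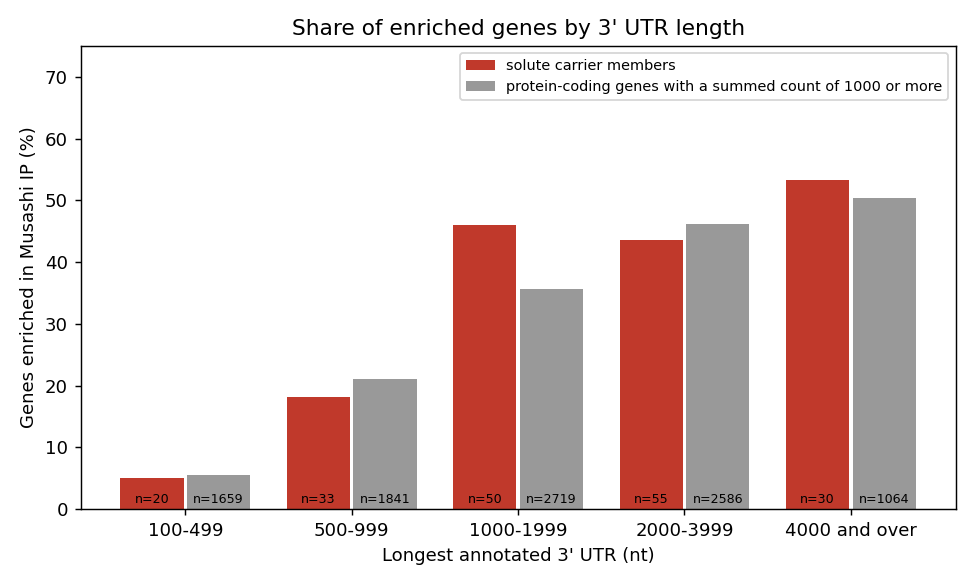
Percentage of genes enriched in Musashi IP by length of the longest annotated 3' UTR, for solute carriers and for all protein-coding genes with a summed count of 1000 or more, with the number of genes at the foot of each bar. Both run from near 5% in the shortest class to above 50% in the longest.

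Whether the antibody effect differed between the sexes was asked with an interaction term. No solute carrier and no gene at all passed at adjusted p under 0.05 (edgeR), no solute carrier and 187 genes (0.91%) had an unadjusted p under 0.05, and DESeq2 also called none, with 1 solute carrier at an unadjusted p under 0.05. The smallest p was that of Slc36a4, whose log2 ratio was 0.97, 1.34 and 2.35 in the female lysates 2, 5 and 6, against 0.69 and 0.75 in the male lysates 3 and 7. The female minus male difference was 0.83 ± 0.39 (SE; unadjusted p = 0.0657 in edgeR's quasi-likelihood test, adjusted p = 1). The differences of Slc35b4 and Slc35d1 were 0.70 ± 0.38 and 0.39 ± 0.21. With 3 female and 2 male lysates these errors leave differences of this size undecided. Without lysate 2 the unadjusted count was 47 solute carriers (24.9%, against 10.4% of all genes), still with none after adjustment. The share of well-counted protein-coding genes was not taken.

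The IgG libraries of the 2 sexes were compared for the levels themselves, with the limit that RNA held by IgG beads is not the RNA of the lysate. In females 9 solute carriers were higher (4.76%, against 2.66% of all genes tested and 2.77% of the well-counted protein-coding genes) and 4 were lower (2.12%, against 1.84% and 2.27%). At an unadjusted p under 0.05 there were 39 solute carriers (20.6%), against 16.7% of all genes tested. The libraries of the sexes did not overlap for any of the 13, nor for 71 of the 189 (37.6%) or 33.4% of all genes tested. Neither the unadjusted share nor this one was taken for the well-counted protein-coding genes. Slco2a1, the prostaglandin transporter, had 32.9, 22.6 and 16.6 CPM in female IgG of lysates 2, 5 and 6, against 3.64 and 1.70 CPM in male IgG of lysates 3 and 7. The log2 fold change was 3.16 ± 0.40 (8.93-fold, adjusted p = 0.00107). The Musashi IP libraries, which this comparison did not use but which share the lysates, had 32.8, 22.7 and 15 CPM in females and 2.82 and 2.59 CPM in males. Slc35f4, an orphan of the Slc35 family, had 39.6, 25.8 and 26.9 CPM in female IgG and 7.41 and 6.56 CPM in male IgG, with a log2 fold change of 2.13 ± 0.27 (adjusted p = 0.000991). Slc17a6 had 59.8, 41.6 and 44.7 CPM in female IgG and 14.2 and 14.8 CPM in male IgG, with a log2 fold change of 1.74 ± 0.22 (adjusted p = 0.000991).

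Among the smaller differences, Slc6a17 averaged 376 ± 33.3 CPM in female IgG (n = 3) and 201 ± 36.1 CPM in male IgG (n = 2). Slc8a3, the sodium-calcium exchanger NCX3, averaged 18 ± 2.21 CPM in female IgG and 6.73 ± 2.11 CPM in male IgG, and Slc35f1 averaged 24.2 ± 4.39 CPM in female IgG and 11.1 ± 0.817 CPM in male IgG. Slco3a1, an organic anion transporter, was lower in females, at 22.8 ± 0.630 CPM in female IgG and 42.1 ± 0.401 CPM in male IgG, as was Slc4a7, a sodium bicarbonate cotransporter, at 62.9 ± 7.58 CPM in female IgG and 113 ± 24.3 CPM in male IgG. Markers of mural cells and fibroblasts moved with sex too, summing to 631 to 1206 CPM in female IgG and 307 to 422 CPM in male IgG, with 1 of 6 higher at adjusted p under 0.05. Stem and folliculostellate markers summed to 20.1 to 42 CPM in female IgG and 46 to 48.6 CPM in male IgG, and posterior lobe markers to 82.6 to 105 CPM in female IgG and 56.9 to 78.4 CPM in male IgG, with none called. Of 6 hormone genes 1 was higher and 2 were lower in females. Their part in the solute carrier differences was not tested. Leaving out a male lysate leaves 1, which is then assumed to vary like the females: 2 solute carriers were called higher and none lower without lysate 3, and 1 higher and none lower without lysate 7. Without the female lysate 6 there were 8 higher and 1 lower.

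**Figure D4:**
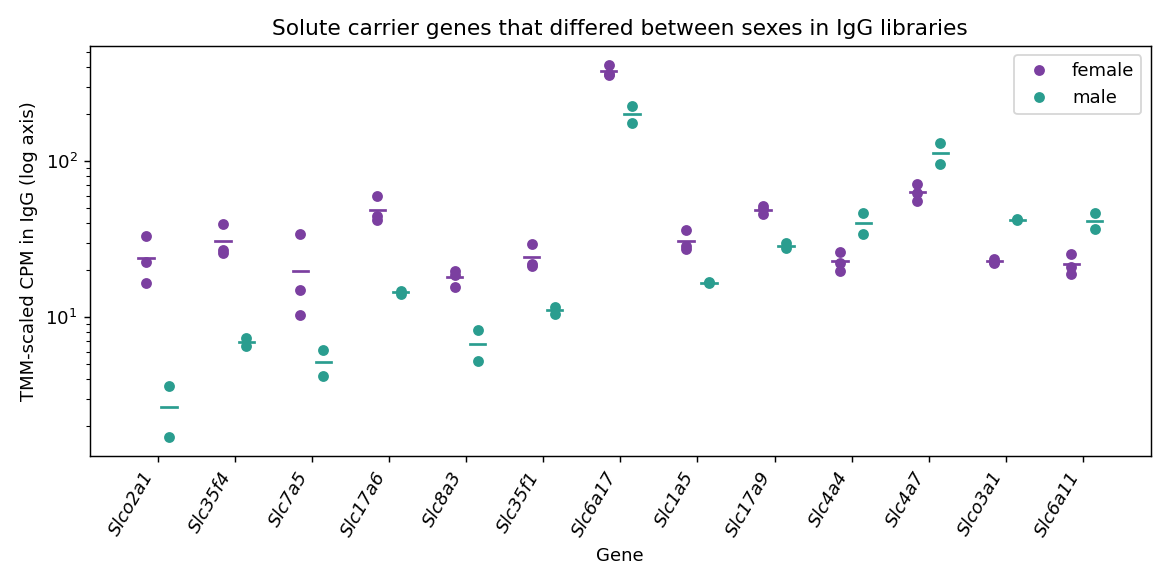
TMM-scaled CPM (log axis) in female and male IgG libraries for the 13 solute carriers that differed between the sexes, each point a library and each line the group mean. Slco2a1 shows the widest gap, with female libraries at 16.6 CPM or more and male libraries at 3.64 CPM or less.

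Other membrane transport genes were counted at any depth that passed the filter, where 25.7% of protein-coding genes were enriched, as were 12 of the 86 solute carriers below the summed count of 1000 that were tested. Of 21 V-type ATPase subunits tested 7 were enriched and none lower, led by Atp6v0e2 with a log2 fold change of 2.49 ± 0.26. Of 39 ABC transporters 5 were enriched, of 32 P-type ATPases 3 were enriched and 1 was lower, of 21 Mfsd genes 5 were enriched and of 7 Clcn chloride channels and exchangers 2 were enriched. Of 4 aquaporins 1 was enriched and 1 was lower. Of 8 genes listed as partners of transport proteins 3 were enriched. These were Arl6ip5 (1.88 ± 0.26), which binds a glutamate transporter in the endoplasmic reticulum, Ostm1 and Atp1b1. The last is also counted among the enriched P-type ATPases.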

How the data were processed

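Raw counts per gene, deposited as one table by the authors, were used as given. Per the submitters' processing notes, reads were handled with FastQC 0.11.8, Trimmomatic 0.39 and STAR 2.7.1a on GRCm39. Per the labels, libraries were stranded total RNA; how reads were assigned to genes is not stated there. Symbols, biotypes and 3' UTRs came from GENCODE M21, an annotation of GRCm38, by Ensembl ID (93.99% of IDs matched), so no coordinates are given. Counts were fitted with edgeR 4.0.16 (filterByExpr, TMM scaling, glmQLFit and glmQLFTest), with the lysate as a block because each lysate was split between the antibodies, and adjusted by Benjamini-Hochberg over all genes tested. Deviations of same-numbered libraries correlated at 0.186 to 0.778, and in lysate 6, at 0.186, another library correlated better (0.415). All 189 genes passed the filter. CPM values are TMM-scaled, except marker sums, which use library totals. DESeq2 1.42.0, other scalings and filters, the fit without the block, a length and GC correction and leaving out each lysate were alternatives. Named genes were the 15 most enriched and up to 10 lower ones with 1 direction in 5 of 5 lysates, the 5 nearest to 0 above 20 CPM, up to 3 per substrate group and direction, and up to 8 for sex. Fits were tested on simulated data in which few genes changed, equally up and down, with the same dispersion for all genes. The real data differ in this, so the simulation does not check their scaling or calls. The genes, groups and lists were chosen with earlier results of these data known.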

Additional observations from a re-analysis of the deposited data

Results flagged for a closer look

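Slc2a13, the proton-coupled myo-inositol transporter, had a log2 ratio of Musashi IP over IgG of 2.06 in lysate 6, against 0.43 to 0.85 in the other lysates, a gap wide enough to stand apart from its group. Without lysate 6 its log2 fold change was 0.56 and it stayed called (adjusted p = 0.000802). The IgG library of lysate 2 had 0.913% of its counts on the 189 solute carriers, below the 0.996 to 1.02% of the other IgG libraries. Chance sets apart about 1 in 20 groups, and 48 groups were looked at.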

How the results depend on the processing

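The number of enriched solute carriers stayed within 1.5 times of 70 under other scalings, filters, DESeq2 and the length and GC correction (56 to 71), but was 39 without the lysate block (61 with sex in its place) and 27 to 83 when 1 lysate was left out, and 24 of the 70 were called in each of the 13 settings first tried. The lower count of 5 was 17 under library totals, 12 with a 2 CPM filter, 10 with protein-coding genes only, 3 with no low-count filter, 0 without the block, 2 with sex in its place and 0 to 7 when 1 lysate was left out. Over all genes, 2407 were enriched and 176 lower without the block (3312 and 670 with sex in its place), 4068 were lower under library totals and 3214 with the 2 CPM filter, and leaving out 1 lysate gave 1676 to 4651 enriched and 187 to 2101 lower. With library totals recomputed from the genes kept, leaving out 1 lysate gave 42 to 69 enriched and 0 to 7 lower solute carriers, and 2288 to 4188 enriched and 182 to 2100 lower genes (597 without lysate 7). That scaling and the sex term were chosen after seeing the data. In IgG, females had 1 to 10 solute carriers higher and 0 to 4 lower when 1 lysate was left out, and 8 lower with no low-count filter and 7 with the length and GC correction. The genes nearest to 0 changed sign. Slc25a23 was at -0.17 under library totals, -0.011 with DESeq2 size factors and with DESeq2, -0.088 with the 2 CPM filter, -0.091 with protein-coding genes only, -0.14 with the length and GC correction and -0.063 to 0.040 when 1 lysate was left out. Slc15a4 was at -0.17, -0.0094, -0.0093, -0.088, -0.091 and -0.12 in the same settings and -0.064 to 0.038 when 1 lysate was left out. Slc35b1 was at 0.059 with the length and GC correction and -0.10 to 0.061 when 1 lysate was left out. Slc7a4 was at 0.00080 with no low-count filter and -0.15 to 0.042 when 1 lysate was left out. With totals of the genes kept, Slc25a23 was at -0.0056 without lysate 2, -6.6e-05 without 6 and -0.059 without 7, Slc15a4 at -0.0076 without lysate 2 or 6 and -0.056 without 7, Slc35b1 at 0.015 without lysate 2 and 0.035 without 5, Slc35d1 at 0.0045 without lysate 5, and Slc7a4 at 0.052 without lysate 5 and 0.0047 without 6. The cause of these changes was not tested. The interaction called no solute carrier in any setting, and the motif share was 82.0% with no minimum UTR length and 79.2% with the isoform of longest coding sequence. In the shallowest library 1 count was worth 0.15 CPM.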
